A study of Mus musculus with 3 samples.

Results

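The YAP and mechanosensing genes followed here in mouse cornea are 9 of the 30406 genes that all 3 libraries list: *Piezo1*, *Yap1*, *Wwtr1*, *Tead1*, *Ccn1*, *Ccn2*, *Ankrd1*, *Amotl2* and *Lats2*. They were chosen by name and matched by Ensembl ID, and all 9 were found. The gene list of the KO_PBS library gives older symbols, Cyr61 for *Ccn1* and Ctgf for *Ccn2*. *Piezo1*, *Yap1*, *Wwtr1* and *Tead1* form the group of sensors and regulators (4 genes), and the other 5 form the group of target genes.

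The data are single-nucleus RNA counts from snap-frozen whole corneas, made with the 10x Genomics 3′ v3 chemistry, with the tissue of 5 mice pooled in each library. WT is the library of untreated wild-type mice, KO that of untreated Aire knockout mice, and KO_PBS that of Aire knockout mice that received phosphate-buffered saline for 14 days. All mice were 7 weeks old per the sample labels, whereas the series text gives 6 weeks and day 7. A further arm of that text, knockout mice given lacripep, is not analysed here. Aire drives the display of tissue antigens in the thymus, and mice that lack it develop autoimmune dry eye. KO and KO_PBS share the knockout, and the allele and strain are not given in the sources used here. There is 1 library per group, so no difference below has a replicate check, and the saline treatment of KO_PBS cannot be told apart from anything else that sets that library apart.

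YAP (from *Yap1*) and its paralog TAZ (from *Wwtr1*) are coactivators that enter the nucleus when cells spread, stretch or sit on a stiff matrix, and there they act through the DNA-binding TEAD proteins. The kinases LATS1 and LATS2 of the Hippo pathway phosphorylate both coactivators and keep them in the cytoplasm. PIEZO1 is a stretch-gated cation channel that passes mechanical force on to this pathway, and in the cornea YAP is known for its part in epithelial growth, stromal wound repair and the endothelial cell layer.

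The promoters of the members were searched for the core of the TEAD binding motif, GGAATG, on both strands (CATTCC on the other). RefSeq windows on GRCm38.p6, 250 bases upstream of each annotated start, were found for 7 of the 9 members, and those of *Ccn2* and *Tead1* were not searched. Of these, 5 held a match (*Yap1*, *Wwtr1*, *Ccn1*, *Ankrd1* and *Amotl2*), in 6 of 9 windows. Over the whole table, 12.6% of 32851 windows held one. A match is a match of letters and no measured binding site, and the windows of *Piezo1* and *Lats2* had none. The 2 members that passed the fold rule between KO and WT, described below, are printed in full, 5′ to 3′ on the strand of the gene and ending at the base before the start. Capitals mark the motif.

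Wwtr1 (chr3:57575911-57576160, minus strand): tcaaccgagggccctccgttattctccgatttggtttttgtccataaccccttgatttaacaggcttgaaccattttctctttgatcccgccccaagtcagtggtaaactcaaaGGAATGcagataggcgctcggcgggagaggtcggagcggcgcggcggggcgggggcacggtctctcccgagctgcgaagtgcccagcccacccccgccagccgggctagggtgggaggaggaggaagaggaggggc

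Ccn1 (chr3:145649986-145650235, minus strand): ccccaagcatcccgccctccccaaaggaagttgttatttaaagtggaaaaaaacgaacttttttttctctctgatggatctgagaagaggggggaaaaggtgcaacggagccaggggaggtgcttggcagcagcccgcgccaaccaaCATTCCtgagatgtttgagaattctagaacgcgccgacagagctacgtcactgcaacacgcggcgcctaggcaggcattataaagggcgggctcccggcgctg

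For the other members with a match, the 30 bases around it show how the flanking letters differ between genes with the same core.

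Yap1 (chr9:8004720-8004749, minus strand): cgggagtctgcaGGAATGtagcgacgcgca

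Ankrd1 (chr19:36120037-36120066, minus strand): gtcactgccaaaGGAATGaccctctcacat

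Ankrd1 (chr19:36119950-36119979, minus strand): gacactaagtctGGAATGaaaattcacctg

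Amotl2 (chr9:102717727-102717756, plus strand): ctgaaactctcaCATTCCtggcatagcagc

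The core read GGAATG on the gene's strand in *Yap1*, *Wwtr1* and *Ankrd1*, and CATTCC in *Ccn1* and *Amotl2*. The first motif base lay 136 bases before the *Wwtr1* start, 103 before that of *Ccn1*, 141 before that of *Yap1*, 210 and 123 before that of *Ankrd1*, and 65 before that of *Amotl2*. The other *Wwtr1* window overlaps the one printed and holds the same match.

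The libraries held 96587 (WT), 107031 (KO) and 114357 (KO_PBS) barcodes, with 256852883, 352627863 and 178988562 UMIs, and a median of 2261, 2980 and 1432 UMIs per barcode. Levels are counts per 1000000 UMIs of the common IDs (CPM), with exact 95% Poisson intervals that cover counting error only. Between 2833 and 3379 barcodes occurred in each pair of libraries, and leaving them out moved no member's call. *Aire* itself had 15, 27 and 68 UMIs (0.0586, 0.0768 and 0.382 CPM) in WT, KO and KO_PBS, and 3′ counts do not show a deletion elsewhere in a gene. Corneal epithelium markers (8 genes) summed to 45057, 32213 and 18219 CPM, keratocyte markers (8) to 1182, 3950 and 2349, and corneal endothelium markers (6) to 565, 987 and 1685. KO_PBS stood apart in eye markers from outside the cornea: lens (6 genes) summed to 432, 167 and 6193, melanocyte (6) to 492, 171 and 4210, photoreceptor (5) to 104, 39.0 and 1660, and retinal pigment epithelium (5) to 69.4, 24.1 and 362. No marker in these lists was at 0 in any library.

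*Piezo1* (ENSMUSG00000014444, chr8:122481698-122551329) had 26.5 CPM in WT (25.9 to 27.2), 39.3 in KO (38.7 to 39.98) and 61.7 in KO_PBS (60.6 to 62.9). The order was WT, KO, KO_PBS, and no intervals overlapped. Exons of *Ctu2* on the opposite strand overlap it, and *Gm20388*, which also overlaps the locus, is in the KO_PBS gene list only. *Gm20388* lies on the opposite strand without an overlap of exons. It had 48163 UMIs in KO_PBS, against 10976 of *Piezo1*. Because the counting rule for overlapping genes is not given in the sources used here, the KO_PBS level of *Piezo1* is uncertain to that extent.

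*Yap1* (ENSMUSG00000053110, chr9:7931999-8004596) stood at 42.6 in WT (41.8 to 43.4), 72.8 in KO (71.9 to 73.7) and 86.3 in KO_PBS (85.0 to 87.7). *Wwtr1* (ENSMUSG00000027803, chr3:57455649-57575910) stood at 29.95 in WT (29.3 to 30.6), 61.4 in KO (60.6 to 62.2) and 74.0 in KO_PBS (72.8 to 75.3). Both coactivator genes were lowest in WT, and for each the step from WT to KO was wider than that from KO to KO_PBS. *Gm20416*, which overlaps *Yap1* exons on the opposite strand, had 464 UMIs in WT and 362 in KO and is not in the KO_PBS list, so the comparison of *Yap1* with KO_PBS is uncertain to that extent. *Tead1* (ENSMUSG00000055320, chr7:112679318-112906807), which encodes a DNA-binding partner of both, stood at 74.9 in WT (73.8 to 76.0), 101 in KO (99.7 to 102) and 102 in KO_PBS (100.1 to 103). KO and KO_PBS overlapped, and WT was below both. In the 25% of barcodes with the fewest UMIs the order was another: *Tead1* stood at 76.3 in WT (73.5 to 79.2), 108 in KO (105 to 110.4) and 69.4 in KO_PBS (66.2 to 72.6), so KO_PBS was lowest there.

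Of the secreted matricellular targets, *Ccn1* (ENSMUSG00000028195, chr3:145646976-145649981) stood at 17.6 in WT (17.1 to 18.1), 36.6 in KO (36.0 to 37.3) and 36.8 in KO_PBS (35.9 to 37.7). It was low in WT and at one level in the other libraries, whose intervals overlapped. *Ccn2* (ENSMUSG00000019997, chr10:24595442-24598683) stood at 35.2 in WT (34.5 to 35.9), 54.6 in KO (53.8 to 55.4) and 236 in KO_PBS (234 to 239). KO_PBS was far above the others, and its *Ccn2* reached 27 UMIs in 1 barcode, against 12 in WT and 8 in KO. *Gm15270*, which overlaps *Ccn2* exons on the opposite strand, had 296 UMIs in WT and 457 in KO and is not in the KO_PBS gene list, so the *Ccn2* levels are uncertain by what the counting left to each gene. *Ccn2* itself had 9003 and 19183 UMIs in WT and KO.

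*Ankrd1* (ENSMUSG00000024803, chr19:36111961-36120099), a target that encodes a muscle-enriched ankyrin repeat protein, had 94, 98 and 218 UMIs. Its levels were 0.367 in WT (0.297 to 0.449), 0.279 in KO (0.226 to 0.340) and 1.23 in KO_PBS (1.07 to 1.4). WT and KO overlapped, and KO_PBS was above both. *Amotl2* and *Lats2* are targets whose products act back on YAP, the former as a scaffold that holds it outside the nucleus and the latter as its kinase. *Amotl2* (ENSMUSG00000032531, chr9:102716672-102733418) stood at 26.97 in WT (26.3 to 27.6), 45.4 in KO (44.7 to 46.2) and 80.3 in KO_PBS (79.0 to 81.6), with no overlap. *Lats2* (ENSMUSG00000021959, chr14:57689662-57758388) stood at 18.2 in WT (17.7 to 18.7), 23.0 in KO (22.5 to 23.5) and 27.9 in KO_PBS (27.1 to 28.6). These intervals did not overlap either, but the KO_PBS list holds a same-strand gene, *Gm49361* (593 UMIs), whose exons overlap *Lats2*, so its KO_PBS level is uncertain. In the 25% of barcodes with the fewest UMIs, the KO and KO_PBS intervals of *Lats2* did overlap.

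**Figure D1:**
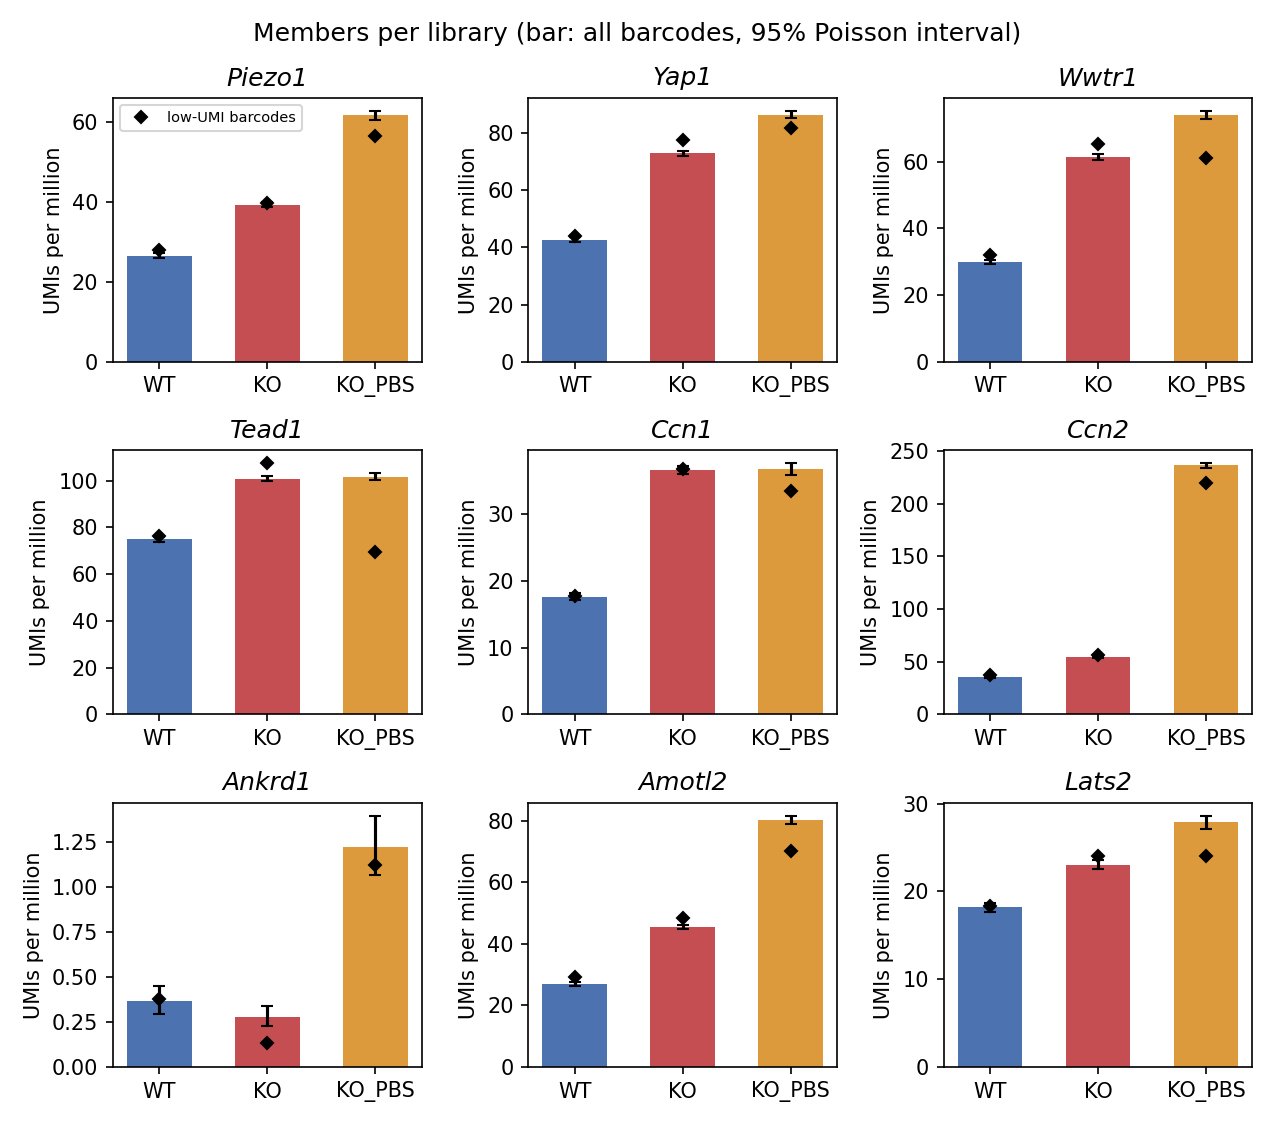
CPM of the 9 genes in the WT, KO and KO_PBS libraries; bars are all barcodes with the exact 95% Poisson interval, and diamonds the 25% of barcodes with the fewest UMIs. *Ccn2* stands at 35.2, 54.6 and 236, *Ccn1* at 17.6, 36.6 and 36.8, and the *Tead1* diamond of KO_PBS, at 69.4, lies below its bar at 102.

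The question set by KO against WT is how the Aire knockout cornea differs from the wild-type one. In KO, *Wwtr1* was 2.05-fold and *Ccn1* 2.08-fold higher than in WT, and these 2 of the 9 genes passed the rule used throughout: 50 or more UMIs over both libraries, a fold of 2 or more, and intervals that do not overlap. None was called lower. Of 20252 genes tested, 20.6% were called higher and 8.63% lower, so the share of members called was near that of all genes. The median gene had a log2 ratio of 0.24, and relative to it neither gene reached 2-fold (0.79 for *Wwtr1*, 0.81 for *Ccn1*), while 14.8% of genes were then called higher. Immune cell markers differed more between these libraries: the summed levels in WT and KO were 51.3 and 675 CPM for macrophages, 2.41 and 76.7 for T cells and 16.4 and 115 for B cells (6 genes each, none at 0). Keratocyte markers stood at 1182 and 3950. The part of these cell types in the members' ratios was not tested. In whole-tissue sums such as these, fewer cells of a type and less RNA per cell cannot be told apart.

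The other members had log2 ratios of 0.77 (*Yap1*), 0.75 (*Amotl2*), 0.63 (*Ccn2*), 0.57 (*Piezo1*), 0.43 (*Tead1*), 0.34 (*Lats2*) and -0.40 (*Ankrd1*, interval -0.82 to 0.03). The 4 sensors and regulators had a median of 0.67 and the 5 targets one of 0.63. Both medians lay above that of all genes and close to each other. The span of a gene moved with the ratio: with genes in 5 equal groups by span, the median was 0.05 in the shortest group, which holds *Ccn1* (3.01 kb) and *Ccn2* (3.24 kb), and 0.41 in the longest. The longest group holds *Piezo1* (69.6 kb), *Yap1* (72.6 kb), *Wwtr1* (120 kb), *Tead1* (227 kb) and *Lats2* (68.7 kb). Relative to genes of like span, *Ccn1* kept a log2 ratio of 1.00, *Wwtr1* 0.62 and *Ccn2* 0.58, and *Tead1* was at 0.02. On that scale the medians were 0.26 for the regulators and 0.52 for the targets.

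Saline-treated against untreated knockout corneas asks what the vehicle treatment goes with. *Ccn2* was 4.33-fold (log2 2.11, 2.09 to 2.14) and *Ankrd1* 4.40-fold (log2 2.14, 1.79 to 2.49) higher in KO_PBS than in KO, and these 2 of 9 were called. None was called lower. Of 22416 genes tested, 39.9% were called higher and 4.7% lower, so a count of 2 among 9 is no more than the background gives. Against the median gene, at 0.63, *Ccn2* was 1.48 and *Ankrd1* 1.51 higher on the log2 scale and both were still called, beside 29.8% of all genes. *Ccn1*, the paralog of *Ccn2*, had a log2 ratio of 0.01 (-0.04 to 0.05).

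The coactivator genes were close to level in this comparison, with log2 ratios of 0.25 (*Yap1*) and 0.27 (*Wwtr1*), as were *Lats2* (0.27) and *Tead1* (0.01). *Amotl2* had a ratio of 0.82 and *Piezo1* one of 0.65. The median of the regulators, 0.26, lay below that of all genes, and the median of the targets, 0.82, above it. The regulators' median was negative once centred on the median gene (-0.37), under TMM scaling (-0.34) and against genes of like span (-0.49). In the 25% of barcodes with the fewest UMIs, where *Tead1* was lower in KO_PBS, *Wwtr1* stood at 61.0 in KO_PBS and 65.3 in KO, with intervals that overlapped. *Yap1* stood there at 81.8 in KO_PBS and 77.6 in KO, and *Lats2* at 24.0 in each. These intervals overlapped too. Lens, melanocyte and photoreceptor markers were higher in KO_PBS by the values given above, mural and smooth muscle markers (7 genes) summed to 144 in KO and 501 in KO_PBS, and skeletal muscle markers (6 genes, none at 0) to 9.23 in WT, 15.4 in KO and 139 in KO_PBS; their part in these ratios was not tested.

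KO_PBS against WT uses the same KO_PBS library, so it is no separate evidence. Here 7 of 9 members were called higher, all but *Tead1* (log2 0.44) and *Lats2* (0.61), and none lower. Among 22138 genes tested, 57% were called higher and 4.06% lower, and the median gene was at 1.27. The ratios of the called members ran from 1.02 for *Yap1* to 2.75 for *Ccn2*, which was 6.72-fold higher. *Yap1* was just past 2-fold and was not called with totals that leave out immunoglobulin, crystallin, globin, mitochondrial and rRNA-type genes (0.97) or with every barcode weighted equally (0.96). Relative to the median gene, *Ccn2* was still called (1.48) and no other member was, beside 29.6% of all genes. *Piezo1* (-0.05), *Yap1* (-0.25), *Ccn1* (-0.21), *Tead1* (-0.83) and *Lats2* (-0.65) were then below 0, and *Wwtr1* was at 0.04, *Amotl2* at 0.30 and *Ankrd1* at 0.47. The regulators had a median of 1.12 and the targets one of 1.57 before centring.

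**Figure D2:**
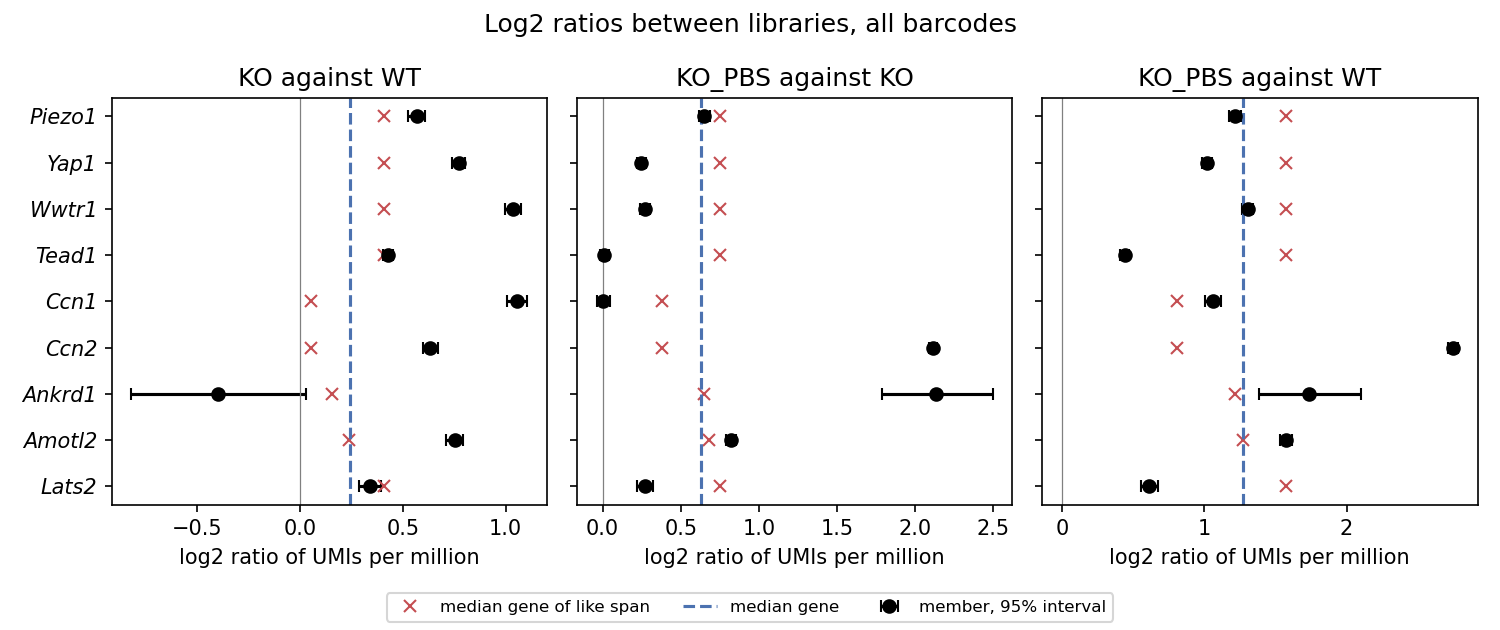
Log2 ratios of CPM for the 9 genes in the 3 comparisons, with 95% intervals (points), the median gene (dashed line) and the median of genes of like span (crosses). In KO against WT 8 of the 9 points lie right of the median gene at 0.24, whereas in KO_PBS against KO *Ccn2* and *Ankrd1* lie near 2.1 and *Tead1* and *Ccn1* near 0.

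For most members the UMIs were spread over barcodes nearly as counting alone would spread them: the index of dispersion, which is 1 in that case, lay between 0.96 and 1.05 for all but *Ccn2* (1.15, 1.08 and 1.15 in WT, KO and KO_PBS) and *Ankrd1* in WT (1.23). Among 200 genes of like level, the range from the 5th to the 95th percentile was 0.98 to 1.07 for *Ccn2* in WT, 0.99 to 1.05 in KO and 1.00 to 1.23 in KO_PBS, so its index was outside that range in WT and KO and inside it in KO_PBS. Over all members and libraries, the median index of genes of like level lay between 0.98 and 1.06, so most genes are near 1 at such levels. An index near 1 does not show an even level over barcodes. *Tead1* in KO_PBS had an index of 0.97, with 69.4 CPM in the 25% of barcodes with the fewest UMIs and 102 in the library. The 25% of barcodes with the fewest UMIs held *Ccn2* at 36.96, 56.3 and 219.6 CPM, close to the library levels. Members were therefore also summed over barcodes rich in the markers of 1 cell type. Such barcodes still carried much RNA of other types: those rich in keratocyte markers had a median of 40162 (WT), 28473 (KO) and 12201 (KO_PBS) CPM of corneal epithelium markers. Levels in them are thus levels of mixed RNA. A level is called above or below the library below where its interval leaves out the library level, and the share of all genes for which that holds is over genes of 10 CPM or more in the library.

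Keratocytes are the stromal fibroblasts of the cornea. In WT, 1838 barcodes rich in their markers held *Ccn2* at 70.6 (64.7 to 76.8) against 35.2 in the library, and *Ccn1* at 34.6 (30.5 to 39.0) against 17.6. *Lats2* was also above its library level there (24.3 against 18.2). *Yap1*, at 41.8 against 42.6, was not. Of all genes, 25.2% were above the library there. In KO, 1733 such barcodes held *Ccn2* at 77.3 and *Ccn1* at 42.3, above library levels of 54.6 and 36.6, as were 12.7% of all genes. Keratocyte-rich barcodes thus stood above their library in both secreted targets in WT and KO, and by less in KO. The levels of *Ccn2* and *Ccn1* themselves were not lower in KO (77.3 and 42.3) than in WT (70.6 and 34.6), with overlapping intervals. Keratocyte markers had a median of 7828 CPM in the keratocyte-rich set of WT, against 732 over all its barcodes. For KO these medians were 11879 and 3525. The part of this difference in marker enrichment in the smaller KO margin was not tested.

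The corneal endothelium is the cell layer that pumps fluid out of the stroma. Barcodes rich in its markers numbered 75, 59 and 468. *Ccn2* stood there at 155 (119 to 199), 58.5 (32.8 to 96.6) and 536 (502 to 572) in WT, KO and KO_PBS. It was above the library in WT and KO_PBS but not in KO, where 15 UMIs carry the value. *Amotl2* stood at 70.0, 113 and 234, above its library in all 3. *Ccn1* stood at 32.5, 109 and 89.9, above the library in KO and KO_PBS. The shares of all genes above the library were 14.4%, 7.03% and 33.9%, in the same order. In 1 WT barcode of this kind 12 of the 62 *Ccn2* UMIs were found, and without it the level was 127.

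Corneal epithelium-rich barcodes (433, 826 and 292) held *Ccn2* at 22.3, 29.9 and 119, below the library in all 3, as were 23.1%, 40.1% and 21.9% of all genes. In KO_PBS the regulators stood above the library there: *Yap1* stood at 170 against a library level of 86.3, *Tead1* at 180 against 102, *Piezo1* at 93.8 against 61.7 and *Wwtr1* at 96.8 against 74.0. Of all genes, 25.4% were above the library in these barcodes. Without barcodes above the 99th percentile of UMIs, *Tead1* stood at 131 (102 to 165) and *Wwtr1* at 69.1 (48.9 to 94.8), an interval that holds its library level. In WT the same barcodes held *Yap1* at 38.0, *Tead1* at 60.4 and *Piezo1* at 18.1, at or below their libraries. Conjunctival epithelium-rich barcodes of KO_PBS (208) also had the regulators above the library, with *Tead1* at 247, *Yap1* at 154, *Wwtr1* at 139 and *Piezo1* at 115, beside 18.9% of all genes. Such levels were not particular to the epithelia. Of 13 lists in KO_PBS, *Tead1* and *Piezo1* were above the library in 7 each, *Wwtr1* in 4 and *Yap1* in 3. *Piezo1* and *Yap1* were below it in 1 each. Corneal endothelium-rich barcodes of KO_PBS held *Tead1* at 231, *Wwtr1* at 154 and *Piezo1* at 77.0, above the library, but *Yap1* (99.9) was not above it. There 33.9% of all genes were above. The median UMIs of epithelium-rich barcodes were 3075.5 in KO_PBS against 1432 in that library, and 4910 against 2261 in WT; the part of depth was not tested.

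Vascular and lymphatic endothelium-rich barcodes of KO_PBS (49) held *Wwtr1* at 279 (204 to 374) against 74.0 in the library, where 14.3% of all genes were above it. Skeletal muscle-rich barcodes of WT (20) held *Ankrd1* at 164 (91.7 to 270.2) against 0.367. Of those 15 UMIs, 12 came from 1 barcode, and without it the level was 38.4 from 3 UMIs. KO_PBS had 41 muscle-rich barcodes with no *Ankrd1* UMI, and its 218 UMIs were in 214 other barcodes. Those 41 barcodes held 88623 UMIs of all genes, too few to expect an *Ankrd1* UMI at the library level. The absence there can therefore not be read as a level below that of the KO_PBS library. Against the muscle-rich barcodes of WT, the counts were 0 in KO_PBS and 15 in WT. They were under the minimum of 50 UMIs, so that difference was not tested.

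**Figure D3:**
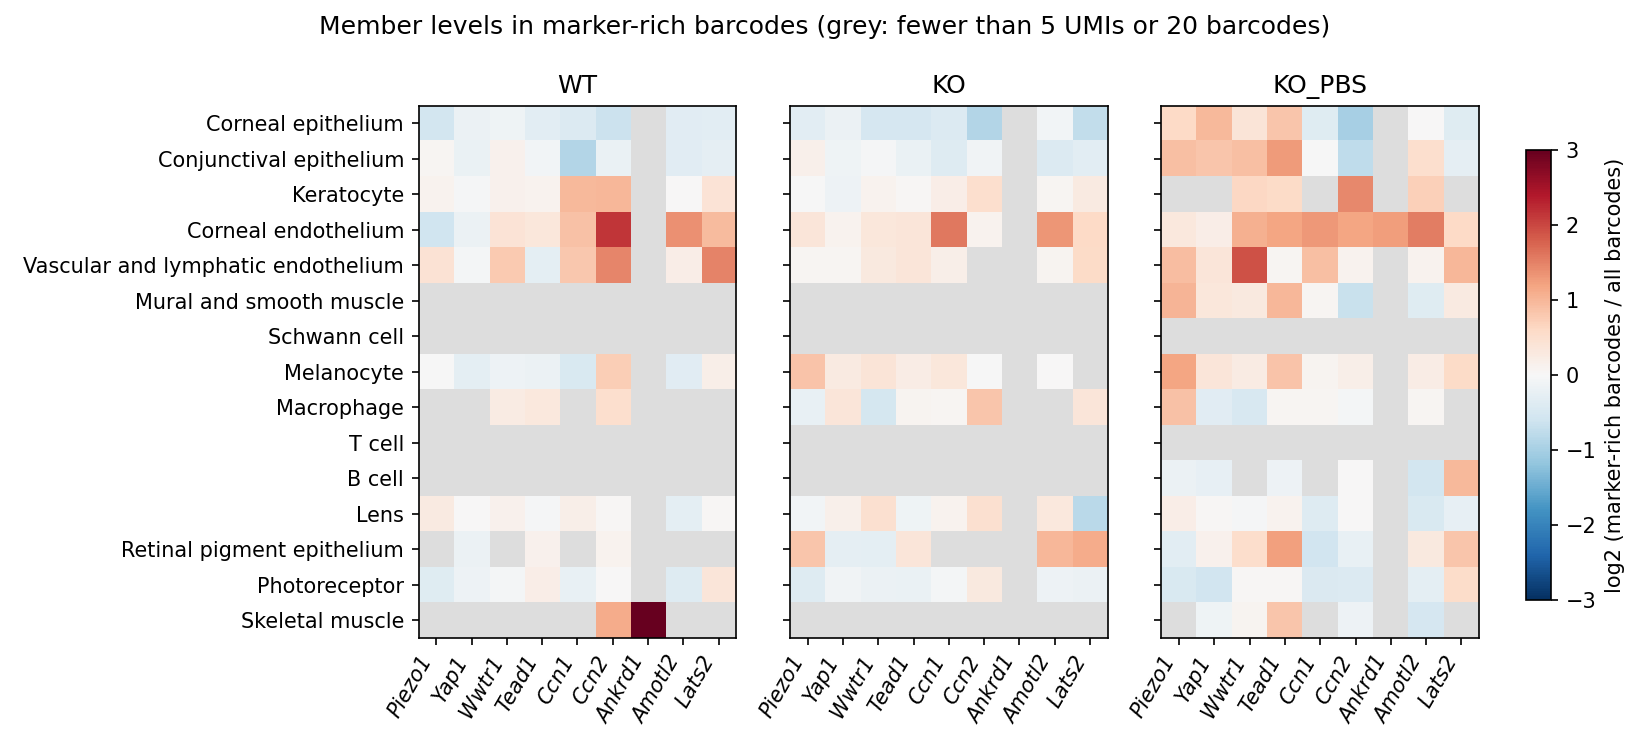
Log2 of each gene's level in marker-rich barcodes over its level in all barcodes of the same library, for 15 marker lists; grey cells had under 5 UMIs or under 20 barcodes, and the scale ends at 3, which the WT muscle cell of *Ankrd1* passes. *Ccn2* is blue in corneal epithelium in all 3 libraries and red in keratocytes. In KO_PBS *Yap1*, *Tead1* and *Piezo1* are red in epithelium, and *Tead1* and *Piezo1* are above the library in 7 of 13 lists each.

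The comparisons were repeated within barcodes of 1 kind. Within keratocyte-rich barcodes, KO against WT gave *Wwtr1* 1.00, *Amotl2* 0.81, *Yap1* 0.65, *Ccn1* 0.29 and *Ccn2* 0.13 on the log2 scale, with the median gene at 0.28. No member was called there, while 16.6% of 12124 genes were called higher. *Wwtr1* thus had nearly its whole-library ratio, and *Ccn1* had far less than its own of 1.06. Within corneal epithelium-rich barcodes *Ccn1* (1.06) and *Amotl2* (1.01) were called higher in KO, beside 17.9% of 9302 genes. Leaving out barcodes above the 99th percentile of UMIs put *Amotl2* just under 2-fold (0.91), and the looser richness rule (a tail of 0.0001 and 2 markers) did so for *Ccn1* (0.93) and *Amotl2* (0.97). Within corneal endothelium-rich barcodes *Ccn2* was called lower in KO (-1.41), beside 5.13% of 1909 genes called lower, but the looser rule gave -0.34. Of the 10 calls of members within marker-rich barcodes in KO against WT, 5 were still at least 2-fold under both other barcode rules. These were *Ccn1* in conjunctival epithelium-rich barcodes (1.56), *Piezo1* (1.43) and *Wwtr1* (1.55) in melanocyte-rich ones, and *Wwtr1* (1.38) and *Amotl2* (1.35) in lens-rich ones. The shares of all genes called higher in those 3 kinds of barcode were 18.4%, 10.9% and 14.8%. *Yap1* in melanocyte-rich (1.33) and *Ccn2* in lens-rich barcodes (1.08) were called but were under 2-fold with the looser rule (0.76 for both). In melanocyte-rich barcodes of KO, *Piezo1* had 17 UMIs and *Wwtr1* 19. One of the other rules takes a subset of the same barcodes and the other loosens the same thresholds, so neither is a separate check. The share of all called genes that held under them was not computed.

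KO_PBS against KO within corneal epithelium-rich barcodes called 5 members higher: *Ccn2* (1.99), *Piezo1* (1.56), *Yap1* (1.399), *Tead1* (1.35) and *Wwtr1* (1.16). There 27.6% of 9221 genes were called higher and the median gene was at 0.55. The 4 regulators, none of them called in the whole libraries, were thus all called here, while *Ccn1* stood at 0.05. Without the barcodes of most UMIs, *Tead1* (0.86) and *Wwtr1* (0.71) were under 2-fold, and *Piezo1* (1.67), *Yap1* (1.38) and *Ccn2* (2.28) were not. Within conjunctival epithelium-rich barcodes 6 members were called higher, beside 20.1% of 5920 genes. These were *Amotl2* (1.72), *Tead1* (1.49), *Ccn2* (1.47), *Piezo1* (1.38), *Wwtr1* (1.21) and *Yap1* (1.21), and *Yap1* was under 2-fold with the looser rule (0.92). *Amotl2* was also called in keratocyte-rich (1.48) and in corneal endothelium-rich barcodes (1.05), and in the latter it was under 2-fold without the barcodes of most UMIs (0.77). In keratocyte-rich barcodes the call rests on 7 *Amotl2* UMIs of KO_PBS, and the median gene was already at 1.20 there. Of 21 calls of members within marker-rich barcodes in this comparison, 16 were still at least 2-fold under both other barcode rules, which again are no separate checks. *Ccn2* was called higher in KO_PBS in 7 of the 8 other lists compared. The log2 ratio was 3.20 in corneal endothelium-rich barcodes (20.6% of all genes called higher there), and 3.06 in keratocyte-rich ones (6.87%), where 10 of the 34 *Ccn2* UMIs of KO_PBS came from 1 of its 20 barcodes. It was 2.34 in retinal pigment epithelium-rich (21%), 2.30 in melanocyte-rich (26.9%), 1.63 in lens-rich (9.12%) and 1.41 in photoreceptor-rich barcodes (24.4%). The retinal pigment epithelium-rich value rests on 4 *Ccn2* UMIs of KO, and the melanocyte-rich one on 13. In melanocyte-rich barcodes of KO_PBS, 27 of the 214 *Ccn2* UMIs came from 1 barcode. In macrophage-rich barcodes the log2 ratio was 1.23 (12.6%), and -0.06 without the barcodes of most UMIs. In vascular and lymphatic endothelium-rich barcodes, where 22.4% of genes were called higher, *Wwtr1* was the one member called (1.89). *Ccn2* stood there at 254 CPM in KO_PBS and 20.5 in KO (log2 3.63), but with 41 and 3 UMIs it was under the minimum of 50 and was not tested. The *Ccn2* difference was thus present in barcodes of many kinds, all of which hold RNA from the rest of their library.

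**Figure D4:**
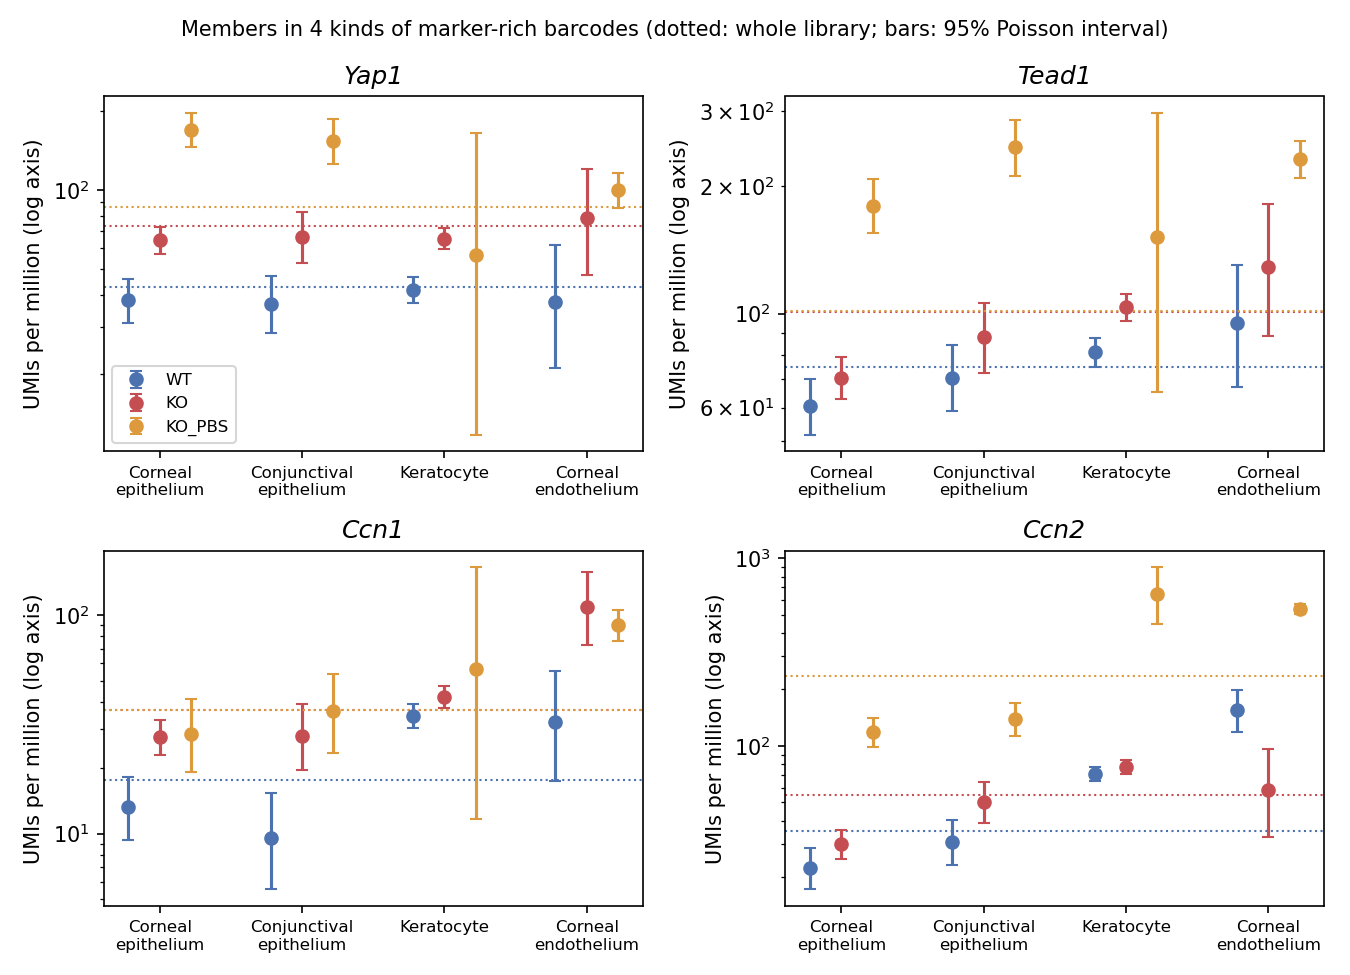
CPM on a log axis for *Yap1*, *Tead1*, *Ccn1* and *Ccn2* in 4 kinds of marker-rich barcodes, by library, with 95% Poisson intervals; dotted lines give the whole library. *Ccn2* lies above its library in keratocyte-rich barcodes in all 3 (70.6, 77.3 and 642) and below it in corneal epithelium-rich ones.

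Lists of related genes were counted by the same rule, beside the shares of all genes called higher given above: 20.6% in KO against WT, 39.9% in KO_PBS against KO and 57% in KO_PBS against WT. Called lower were 8.63%, 4.7% and 4.06%. Centred on the median gene, 14.8% of all genes were called higher and 12.9% lower in KO against WT. The centred shares were 29.8% and 12.9% in KO_PBS against KO, and 29.6% and 23.1% in KO_PBS against WT.

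Of 24 genes listed as Hippo kinases and adaptors, 8 were called higher and 0 lower in KO against WT, with a median of 0.83. The list is wider than its name, since it also holds *Tead2*, *Tead3*, *Tead4*, *Vgll3*, *Vgll4*, *Fat4* and *Dchs1*. Its counts are therefore not counts of upstream Hippo genes alone. The leading genes were *Tead4* (2.08), a TEAD factor, and *Dchs1* (1.56), a protocadherin. The kinase genes *Map4k4* (1.05) and *Stk3* (1.02) were the lowest of those called. In KO_PBS against KO the counts were 3 and 0 with a median of 0.24, led by *Tead2* (1.497) and the YAP-binding scaffold *Amot* (1.32), with the kinase gene *Taok2* at 1.07. In KO_PBS against WT, *Amot* (2.84) and *Tead4* (2.38) led, and the kinase genes *Taok3* (1.06) and *Stk4* (1.02) were the lowest of those called. The counts there were 14 and 0 with a median of 1.06, under the 1.27 of all genes, and 14 of 24 is close to the 57% of all genes. The 3 in KO_PBS against KO are a far smaller share than the 39.9% of all genes. Centred on the median gene, the counts were 3 higher and 0 lower in KO against WT, 0 and 2 in KO_PBS against KO, and 2 and 4 in KO_PBS against WT, so the direction of the latter counts turned.

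Of 16 further genes that are known YAP targets in other cells, 4 were called higher and 2 lower in KO against WT (median 0.59). The receptor kinase gene *Axl* (1.87) and the matrix gene *Ccdc80* (1.44) led, and *Fjx1* (-1.14) and the coagulation factor gene *F3* (-1.34) were lower. In KO_PBS against KO, 5 were higher and 1 lower (median 0.61), with *Tgfb2* at 2.56, *Igfbp3* at 2.00, *Rbms3* at 1.04 and *Fjx1* at -1.32. The signature genes did not share a direction: against WT, KO_PBS had *Igfbp3* at 3.36 and *Tgfb2* at 3.00 but *F3* at -1.34 and *Fjx1* at -2.46, with 9 higher and 2 lower. The 5 of 16 called higher in KO_PBS against KO are a smaller share than the 39.9% of all genes, and the median of 0.61 is close to that of all genes, 0.63. Centred, the counts were 3 higher and 2 lower in KO against WT, 3 and 3 in KO_PBS against KO, and 5 and 6 in KO_PBS against WT.

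Of 15 mechanosensing and focal adhesion genes, 7 were called higher and 0 lower in KO against WT (median 0.89), led by *Zyx* (1.41), which encodes a focal adhesion protein, and the integrin gene *Itgav* (1.33), with the adhesion gene *Pxn* (1.06) and the touch channel gene *Piezo2* (1.05) the lowest of those called. In KO_PBS against KO 3 were higher and 0 lower (median 0.39), with the actin crosslinker gene *Actn1* at 1.88, the nuclear lamin gene *Lmna* at 1.02 and *Piezo2* at 1.00. In KO_PBS against WT 9 were higher (median 1.19), with *Actn1* at 3.17 and *Piezo2* at 2.06, and the kinase genes *Rock1* (1.19) and *Ptk2* (1.14) were the lowest of those called. The share called in KO against WT was above the 20.6% of all genes, that in KO_PBS against KO was under the 39.9% and that in KO_PBS against WT near the 57%; the medians of the latter 2 comparisons lay below those of all genes. Centred, the counts were 3 higher and 0 lower in KO against WT, 1 and 1 in KO_PBS against KO, and 1 and 2 in KO_PBS against WT.

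SRF and MRTF form an actin-linked arm of mechanical signalling, and *Ankrd1*, *Ccn1* and *Ccn2* are known targets of both arms. Of 9 genes of that arm, 7 were called higher in KO_PBS against KO, with a median of 2.18 against 0.63 for all genes, and 6 after centring. *Acta2*, the smooth muscle actin gene, had a level of 33.8 CPM in WT, 20.4 in KO and 300.04 in KO_PBS, and *Tagln* one of 17.2, 10.6 and 130. Their log2 ratios of KO_PBS to KO were 3.88 and 3.63, and the lowest of those called were *Srf* (1.99) and *Cnn2* (1.31). Against WT, 8 were higher (median 2.44), and 5 after centring, with *Acta2* at 3.15, *Tagln* at 2.92, *Srf* at 2.11 and *Mrtfa* at 1.31. In KO against WT 2 were, *Mrtfa* (1.37) and *Cnn2* (1.20), a share near the 20.6% of all genes, and centring gave 1 higher and 2 lower there. Mural and smooth muscle-rich barcodes numbered 8, 6 and 70, and the part of such cells in the *Acta2* and *Tagln* values was not tested.

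Of 12 immediate early genes, which also respond to stress and tissue handling, 7 were called higher in KO against WT (median 1.22), with *Fosb* at 3.89, *Atf3* at 3.39, *Btg2* at 1.31 and *Zfp36* at 1.12. In KO_PBS against KO none was higher and 3 were lower (median -0.76), with *Fosb* at -1.66, *Ier2* at -1.69 and *Atf3* at -1.75, beside 4.7% of all genes called lower. In KO_PBS against WT 5 were higher and 1 lower, with *Zfp36* at 1.82, *Egr1* at 1.66, *Dusp1* at 1.33 and *Ier2* at -1.54. The 5 of 12 are a smaller share than the 57% of all genes, and the median, 0.65, lay below the 1.27 of all genes. Centred, the counts were 6 higher and 0 lower in KO against WT, 0 and 8 in KO_PBS against KO, and 0 and 5 in KO_PBS against WT, where the direction of the list thus turned. *Ccn1* is itself an early gene, and its own ratios in these comparisons were 1.06, 0.01 and 1.06; the part of handling was not tested.

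**Figure D5:**
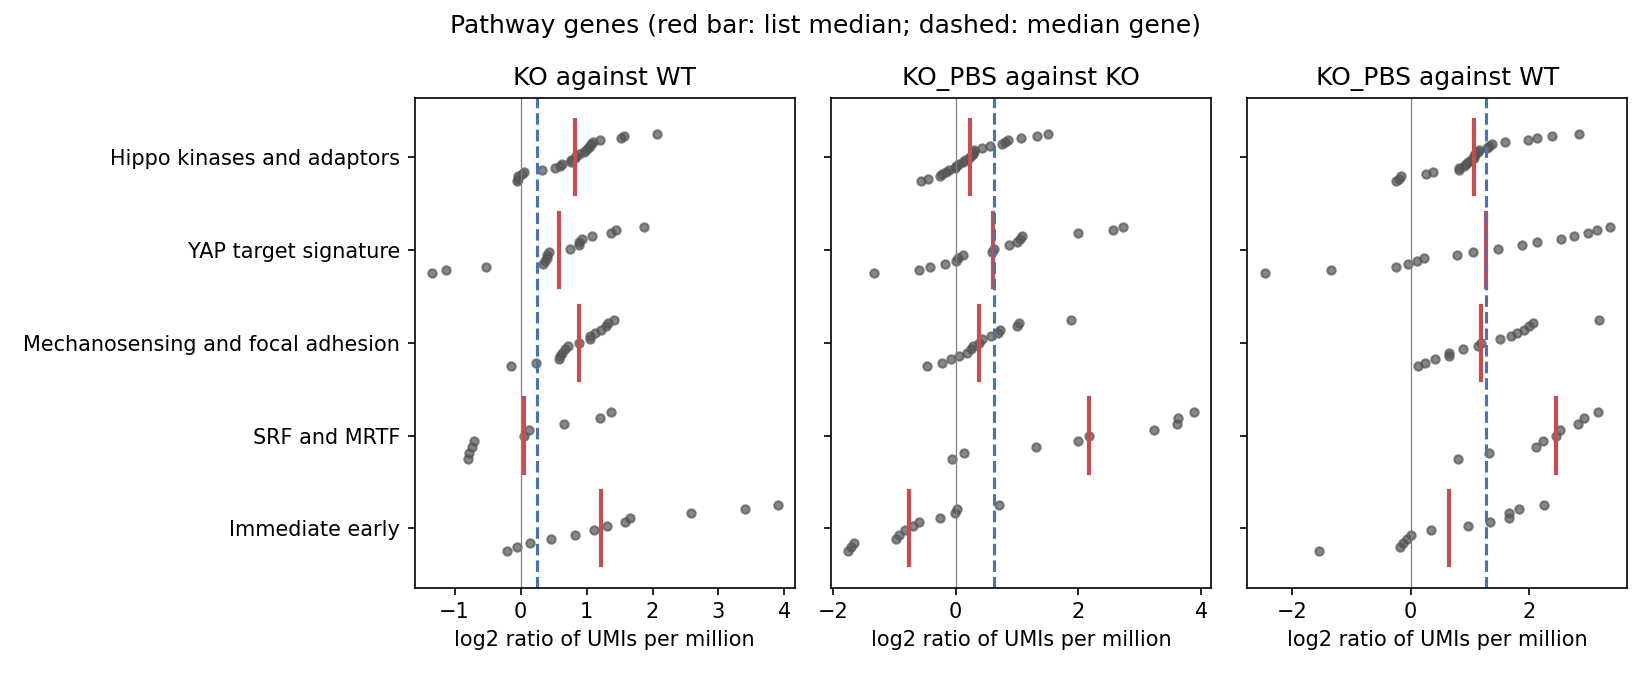
Log2 ratios of the genes of 5 lists in the 3 comparisons, each dot 1 gene, red bars list medians and dashed lines the median gene. The SRF and MRTF list has a median of 2.18 in KO_PBS against KO, right of the median gene at 0.63, and the immediate early list one of -0.76, left of it.

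The patterns of members were set beside those of 13915 genes over 34 sums, each a marker list in a library. The 34 points share their library's depth and free RNA, so these correlations describe the sums only. The genes most like *Yap1* were *Rnf114* (Pearson r = 0.888), *Rsad2* (0.881) and *Larp4b* (0.878), and those most like *Ccn1* were *Dab2* (0.818), *Prrx1* (0.792) and *Calu* (0.781). *Yap1* had r = 0.773 with *Tead1*, 0.711 with *Piezo1*, 0.678 with *Wwtr1* and 0.665 with *Amotl2*, but 0.521 with *Ccn1* and 0.453 with *Ccn2*. The paralogs *Ccn1* and *Ccn2* had r = 0.437 with each other. With *Lats2* and *Ankrd1*, *Yap1* had r = 0.216 and -0.273. *Yap1* was thus closer to the other regulators than to the secreted targets over these sums, while the target *Amotl2* was about level with *Wwtr1*. The spread of r over all genes searched is not given, so how high these values are cannot be judged.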

How the data were processed

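The authors deposited raw UMI counts per gene and barcode for 3 libraries, whole numbers that were not normalized. Cell Ranger 7.0.1 and the build mm10 are named in the submitters' processing notes; the annotation, the treatment of introns, the rule for overlapping genes and the barcode filter are not given in the sources used here. WT and KO list 32285 genes and KO_PBS lists 31053. Sums used the 30406 shared Ensembl IDs, which hold 99.6%, 99.6% and 99.3% of the UMIs; 597 of them carry another symbol in KO_PBS. No column of sample annotation was left unused (0).

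UMIs were summed over all barcodes of a library and divided by its total, as counts per 1000000 UMIs (CPM). Intervals are exact 95% Poisson intervals and cover counting error only, since 1 library per group leaves no replicate error and allows no p-value. A gene was called at 50 or more UMIs over both libraries, a fold of 2 or more (counts under 3 set to 3) and intervals that do not overlap.

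A barcode was taken as rich in a marker list when the list held more UMIs than its library share gives (Poisson tail under 1e-06) from at least 3 markers. Barcodes rich in 2 or more of the 15 lists were left out, no doublet caller was run, and lists with under 20 barcodes got no value. Of the listed markers, Lim2 was not matched.

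Spans and overlaps came from GENCODE M21 (GRCm38), promoters from RefSeq GRCm38.p6. Members and lists were chosen with earlier results of these data known. All 9 members are named in every library. From each of 5 pathway lists the 2 called genes with the largest and the 2 with the smallest log2 ratio are named, if they reach 5 CPM in 1 of the libraries compared, and the 3 genes most like Yap1 and Ccn1 among genes with 200 or more UMIs in every library. Immunoglobulin, crystallin, globin, mitochondrial and rRNA-type genes (432) held 9.13%, 11.1% and 6.08% of UMIs. Alternatives were other scalings, barcode sets, UMI minimum, fold and groupings of the members. TMM factors came from edgeR 4.0.16 in R 4.3.3, and all else from scripts in Python 3.11.15 with scipy 1.17.1 and numpy 2.4.6.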

Additional observations from a re-analysis of the deposited data

How the results depend on the processing

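No paired analysis was possible because each group has 1 library, and for the same reason no replicate could be left out. Leaving out barcodes found in another library, an alternative chosen after seeing the data, moved no count or median of the members beyond its counting error, and neither did called barcodes only or totals over each library's whole gene list. Called barcodes had 500 or more genes and at most 5% mitochondrial UMIs. They were 99.95%, 99.99% and 97.8% of all barcodes in WT, KO and KO_PBS. The shared IDs hold 99.6%, 99.6% and 99.3% of the UMIs. Neither of these latter settings could therefore move a result by much, and a stricter barcode filter was not tested. In KO against WT the 2 members called higher became 0 when centred on the median gene and 0 under TMM scaling, 1 when centred on the median gene of like span, and 5 at a fold of 1.5 (34.6% of all genes). The medians there, 0.67 for sensors and regulators and 0.63 for targets, became 0.43 and 0.39 centred, 0.52 and 0.48 with TMM, and 0.26 and 0.52 against genes of like span. In KO_PBS against KO the 2 members called higher became 4 at a fold of 1.5 (50.9% of all genes). The regulators' median of 0.26 turned to -0.37 centred, -0.34 with TMM and -0.49 against like span, and was 0.18 without immunoglobulin, crystallin, globin, mitochondrial and rRNA-type genes and 0.17 with every barcode weighted equally. The targets' median of 0.82 became 0.19, 0.23, 0.14, 0.74 and 0.74 under the same 5 settings, and 2.11 with Amotl2 and Lats2 placed among the regulators. In KO_PBS against WT the 7 members called higher became 1 centred, 1 with TMM and 1 against like span, where 1 (Tead1) was lower instead of 0. They became 6 without those gene classes and 6 with equal weights, Yap1 losing its call (0.97 and 0.96), and 8 at a fold of 1.5 (68.6% of all genes). The regulators' median of 1.12 turned to -0.15 centred and -0.45 against like span, and was 0.37 with TMM, 1.07 without those gene classes and 1.06 with equal weights. The targets' median of 1.57 became 0.30 centred, 0.83 with TMM, 0.30 against like span and 1.74 with the other grouping. Single members that turned in this comparison were Piezo1 (-0.051 centred, -0.35 like span), Yap1 (-0.25 and -0.55), Wwtr1 (-0.27 like span) and Ccn1 (-0.21 centred), all called, and Tead1 (-0.83 centred, -1.13 like span, -0.30 TMM) and Lats2 (-0.65, -0.96 and -0.13), not called. In KO_PBS against KO, Yap1, Wwtr1, Tead1, Ccn1 and Lats2, none called, were at -0.38, -0.36, -0.62, -0.62 and -0.36 centred and also below 0 with TMM and against like span; Piezo1 was at -0.10 against like span, and Tead1 and Ccn1 were below 0 without those gene classes and with equal weights. In the 25% of barcodes with the fewest UMIs, Tead1 was lower in KO_PBS (69.4 CPM) than in WT (76.3) and KO (108). In KO against WT, Lats2 was at -0.07 against like span. The centred and like-span shifts follow from subtracting a positive median. Pairs of member and marker list at least 2-fold above the library fell from 3 to 1 in KO and from 13 to 8 in KO_PBS when barcodes were taken at a tail of 0.0001 with 2 markers; the cause was not tested. Depth limits Ankrd1 most, with 94 to 218 UMIs.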
